A study of Mus musculus with 18 samples.

Results

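The 4 mouse hairpin loci Mir214, Mir199a-2, Mir199b and Mir199a-1 were followed in small RNA libraries of stromal cells cultured from adipose tissue (ASC), which are mesenchymal, and of extracellular vesicles (EVs) shed by them. They were chosen by name, as the loci of the miR-199 and miR-214 families in the mouse annotation, and are 4 of 2009 hairpin loci listed in the deposited count files. The 18 libraries form 4 groups, which are EVs of primed cells (primed EV, n = 5), EVs of naive cells (naive EV, n = 5), primed ASC (n = 4) and naive ASC (n = 4). All came from adult adipose tissue of a mouse strain labelled NGL. Primed cells had 24 h of interferon gamma, a cytokine of immune activation, and naive cells did not. All cells were then kept for 48 h in alpha MEM with 2% serum freed of EVs. RNA of ASC and RNA of EVs were isolated with different kits, so a difference between EVs and cells and a difference between kits cannot be told apart. The study compared EVs with their parent cells, and EVs of primed with EVs of naive cells. A molecule label of EV miRNA stands on all 18 libraries, ASC included, and the groups follow the source names. The titles of naive EV 1 and naive ASC 1 join 2 library numbers and that of primed EV 3 joins 2 numbers in its interferon part, with no meaning stated, and those of primed EV 1 and primed EV 5 both carry the library number 5. Whether replicates were different animals or cultures is not stated, and p-values therefore measure only the spread between these samples, which may be technical.

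These miRNAs are known as mesenchymal. Each hairpin lies on the strand opposite a dynamin gene, and the pair on chromosome 1 is cut from one long RNA, Dnm3os, which in mice is needed for normal skeletal development and is switched on by the mesenchymal regulator Twist1. miR-199a-5p is known to repress caveolin-1 in lung fibroblasts, miR-199a-3p promotes division of heart muscle cells in rodents, and miR-214 represses the chromatin regulator Ezh2 in mouse muscle cells. Coordinates are GRCm38 and are the same in the files, GENCODE and RefSeq. Mir199a-2, chr1:162217814-162217923 on the plus strand, and Mir214, chr1:162223368-162223477 on the plus strand, both overlap exons of Dnm3os and lie in an intron of Dnm3 on the other strand, with 5444 bases between them. Mir199b, chr2:32318460-32318569 on the plus strand, lies opposite an intron of Dnm1. Mir199a-1, chr9:21496495-21496564 on the minus strand, lies opposite an intron of Dnm2.

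The hairpins are shown because what each locus can count depends on the sequence it shares with the others. They are RefSeq sequences on GRCm38.p6, and all 4 loci matched. Capitals mark the mature arms that RefSeq annotates.
Mir214: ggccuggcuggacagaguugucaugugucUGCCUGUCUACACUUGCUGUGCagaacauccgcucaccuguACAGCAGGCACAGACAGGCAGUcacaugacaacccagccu
Mir199a-2: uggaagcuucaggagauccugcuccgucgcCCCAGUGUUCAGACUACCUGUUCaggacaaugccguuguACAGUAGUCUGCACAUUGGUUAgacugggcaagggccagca
Mir199b: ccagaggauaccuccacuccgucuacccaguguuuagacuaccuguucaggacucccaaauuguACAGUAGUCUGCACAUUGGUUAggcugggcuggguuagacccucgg
Mir199a-1: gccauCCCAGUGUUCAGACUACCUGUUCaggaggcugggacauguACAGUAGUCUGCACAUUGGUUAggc

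The mature miRNAs are shown again for their seeds (bases 2 to 8, in capitals), which guide target choice.
miR-214-3p: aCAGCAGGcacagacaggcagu
miR-214-5p: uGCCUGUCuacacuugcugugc
miR-199a-3p and miR-199b-3p: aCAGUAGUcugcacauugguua
miR-199a-5p: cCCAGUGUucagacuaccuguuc
Among RefSeq mature miRNAs, only miR-761 shared the seed of miR-214-3p, and its locus Mir761 had 0 counts in all 18 libraries. Among arms annotated in RefSeq, the seed of the miR-199 3p arms occurred at the 3 miR-199 loci only, and that of miR-199a-5p at Mir199a-2 and Mir199a-1. Mir199b has no 5p arm in the RefSeq set used, so it could not enter the 5p search. Other annotations of mature miRNAs were not searched. The stretch of its hairpin that faces miR-199a-5p carries the same seed bases.

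Neither arm of Mir214 occurred in another RefSeq hairpin, while every arm that RefSeq annotates on the 3 miR-199 hairpins did. For Mir199b this rests on 1 RefSeq arm, the 3p arm, and for Mir199a-2 and Mir199a-1 on 2 each. The 5p stretch of Mir199b did not enter as an arm. Only annotated hairpins were searched, not the rest of the genome. The 3p arm is identical in all 3, and the miR-199 hairpins part only a few bases beyond it. They are shown from the first base of the 3p arm, with the hairpin bases after the arm in capitals.
Mir199a-2: acaguagucugcacauugguuaGACU
Mir199b: acaguagucugcacauugguuaGGCU
Mir199a-1: acaguagucugcacauugguuaGGC
Around the 3p arm Mir199a-2 shares 27 bases without a break with Mir199b and 26 bases with Mir199a-1, and Mir199b shares 28 bases with Mir199a-1, up to the end of the Mir199a-1 hairpin. Around the 5p arm Mir199a-2 and Mir199a-1 share 27 bases. The facing stretch of the Mir199b hairpin differs from miR-199a-5p by 1 substitution of 23 bases, C10U, counted from the 5′ end of miR-199a-5p. It stands in capitals in the next 2 lines.
miR-199a-5p: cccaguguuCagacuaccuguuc
Mir199b: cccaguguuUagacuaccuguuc
Per the file headers, no option for reads placed at several sites was given, and the counter then leaves such reads out. A read that lies wholly inside a shared run would therefore be counted at none of the loci that share it, and counts at Mir199a-2, Mir199b and Mir199a-1 are not totals of miR-199. A read of the Mir199b 5p stretch that spans C10U lies in no shared run, while a read of miR-199a-5p does. The miR-199 loci can therefore count different arms. Over all listed loci with RefSeq arms, 10 of 35 loci had counts where every arm recurred in another hairpin, 38 of 49 where some did, and 520 of 832 where none did. Counting ignored strand, so a read from a dynamin transcript opposite a hairpin cannot be told apart from one of the hairpin.

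Mir214 held most of the counts on these loci. Its count was 915, 4386, 1167, 1251 and 1033 in primed EV 1 to 5, and 3285, 1176, 1776, 602 and 987 in naive EV 1 to 5. It was 8033, 3022, 1993 and 5680 in primed ASC 2 to 5, and 4322, 5162, 4542 and 7918 in naive ASC 1, 3, 4 and 5. Library totals ran from 626951 to 3052942 counts in primed EV, 613448 to 2245823 in naive EV, 180812 to 895721 in primed ASC and 486237 to 926183 in naive ASC. Most cell libraries thus gave more Mir214 counts, while the median total was lower in ASC than in EVs, primed and naive. These totals are of counts on the listed loci, not of reads sequenced. Mir214 ranked 45th to 62nd of all loci by count in primed EV, 49th to 70th in naive EV, 18th to 24th in primed ASC and 16th to 34th in naive ASC.

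Mir199a-2 had 288, 1326, 374, 390 and 300 counts in primed EV 1 to 5, and 981, 305, 310, 115 and 282 in naive EV 1 to 5. It had 208, 64, 30 and 333 counts in primed ASC 2 to 5, and 199, 528, 392 and 265 in naive ASC 1, 3, 4 and 5. Mir199b had 188 to 826 counts in primed EV, 148 to 554 in naive EV, 14 to 186 in primed ASC and 115 to 217 in naive ASC. The library with the lowest total, primed ASC 4, gave the lowest count of both. Mir199a-1 was close to empty, with 0 to 1 counts per library in primed EV and in naive EV, 1 to 4 in primed ASC and 0 to 2 in naive ASC. Its sum was 18 counts over the 18 libraries, too few for the filter on low counts, so 3 of the 4 loci were tested.

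The 4 loci together took 0.187% ± 0.0432 of counts (SD, n = 5) in primed EV, 0.193% ± 0.0417 (n = 5) in naive EV, 1.00% ± 0.108 (n = 4) in primed ASC and 0.938% ± 0.471 (n = 4) in naive ASC. Without the counts of Mir22, Mir143 and Mir21a, the shares were 0.485%, 0.494%, 1.31% and 1.31% in that order. Mir214 made up 66.2% ± 1.5 of the counts on the 4 loci in primed EV, 69.6% ± 3.23 in naive EV, 95.1% ± 2.55 in primed ASC and 91.1% ± 3.63 in naive ASC. The lowest cell library stood at 87.4% and the highest vesicle library at 74.7%. The plot of how counts split shows this shift in every library.

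**Figure D1:**
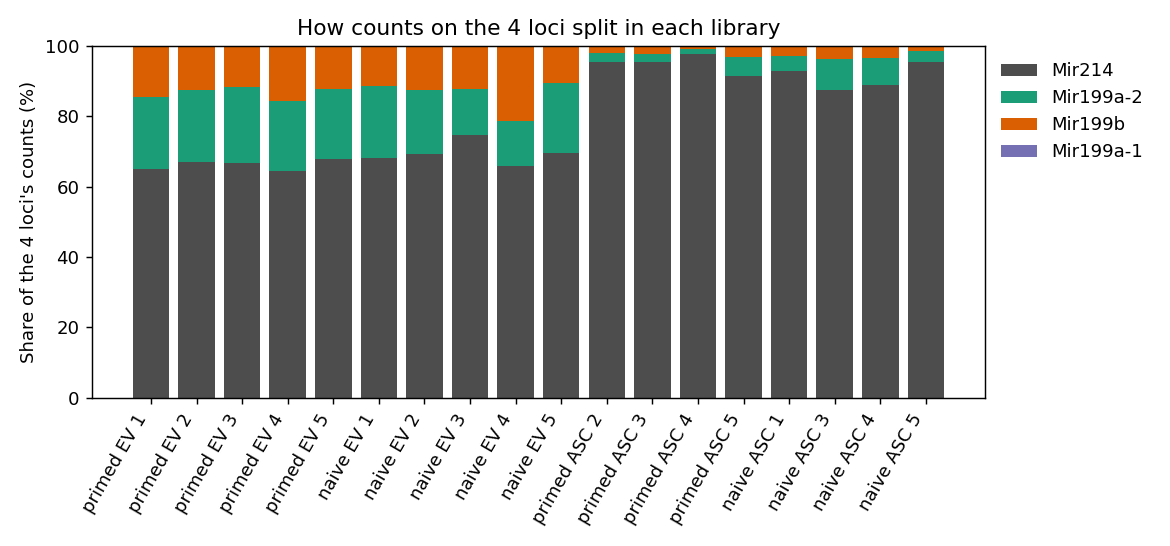
Share of the counts on the 4 loci held by each locus (y axis, percent) in each of the 18 libraries (x axis). Mir214 holds 64.3% to 74.7% in EV libraries and 87.4% to 97.7% in ASC libraries, and Mir199a-1 is too small to see.

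In CPM, which are counts scaled to a common library size, Mir214 averaged 1635 ± 334 CPM in primed EV (SD, n = 5), 1448 ± 268 CPM in naive EV (n = 5), 7685 ± 601 CPM in primed ASC (n = 4) and 6502 ± 2611 CPM in naive ASC (n = 4). The highest EV library, primed EV 5 at 2147 CPM, lay below the lowest ASC library, naive ASC 4 at 4102 CPM. Within vesicles and within cells the groups overlapped. Naive ASC was the widest group, with naive ASC 3 and 4 at 4721 and 4102 CPM and naive ASC 1 and 5 at 7411 and 9772 CPM.

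The order of the groups was different for the miR-199 loci. Mir199a-2 averaged 501 ± 85.1 CPM in primed EV, 356 ± 123 CPM in naive EV, 225 ± 129 CPM in primed ASC and 376 ± 71.9 CPM in naive ASC. Naive EV and naive ASC differed by less than their spread, and primed ASC 5, at 413 CPM, stood above the other primed ASC libraries at 124 to 189 CPM. Mir199b averaged 328 ± 63.6 CPM in primed EV, 271 ± 31.8 CPM in naive EV, 161 ± 76.3 CPM in primed ASC and 182 ± 43.9 CPM in naive ASC. For Mir199b the primed EV and naive EV libraries overlapped, and so did the primed ASC and naive ASC libraries.

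**Figure D2:**
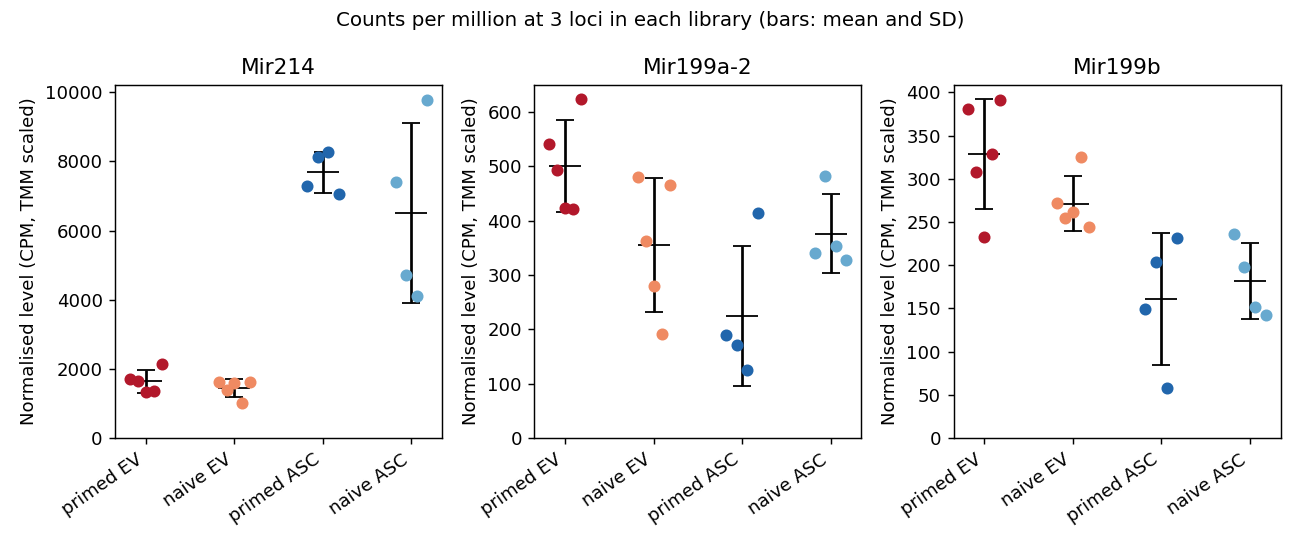
Level of Mir214, Mir199a-2 and Mir199b (y axes, CPM after scaling) in each library, by group (x axis), with the mean and SD. All 10 EV libraries lie below all 8 ASC libraries for Mir214, while for Mir199b most EV libraries lie above the ASC libraries.

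The comparison of naive EV with naive ASC asked how vesicles differ from the cells that release them. Mir214 was 4.49-fold lower in naive EV (-2.17 in log2, SE 0.23, with 5 and 4 libraries; adjusted p = 1.21e-07 by the quasi-likelihood test of edgeR with Benjamini-Hochberg adjustment). Of the 3 tested loci it was the only one to pass in this fit, against 66.1% of all 245 loci tested, with 33.5% higher and 32.7% lower, so a call alone is common here. The groups of Mir214 did not overlap, as for 28.2% of loci in that direction. Only 14 of the 245 loci had a lower log2 fold change than Mir214. Mir199a-2 stood at -0.08 (95% interval -0.71 to 0.55; adjusted p = 0.815, same edgeR test) and did not pass, and its direction turned with relative log expression factors (0.051) and with TMMwsp factors (0.12).

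Mir199b stood at 0.58 (SE 0.28; adjusted p = 0.0780, same edgeR test), short of the threshold of 0.05. Its naive EV libraries, at 245 to 325 CPM, all lay above its naive ASC libraries, at 142 to 237 CPM, as they did for 30.2% of the tested loci. It passed by DESeq2 (0.69) and limma-voom (0.61), and in edgeR without primed ASC 4 (0.68), primed ASC 5 (0.65) or naive ASC 1 (0.79). With library totals alone it stood at 0.12 and did not pass (edgeR, adjusted p = 0.684).

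In primed EV against primed ASC, all 3 tested loci passed, Mir214 downward and the 2 miR-199 loci upward. Mir214 was 4.70-fold lower (-2.23 in log2, SE 0.23, with 5 and 4 libraries; adjusted p = 6.86e-08, same edgeR test), with 17 of 245 loci lower still. Mir199a-2 was 2.20-fold higher at 1.13 (SE 0.31; adjusted p = 0.00347, same edgeR test) and Mir199b was 2.01-fold higher at 1.01 (SE 0.29; adjusted p = 0.00445, same edgeR test). Of all loci 68.2% passed, 35.9% higher and 32.2% lower, so most loci differed in this comparison. EV and ASC libraries did not overlap at any of the 3 loci, as for 27.8% of all loci upward and 25.7% downward. The margins were narrow for Mir199a-2, with the lowest EV library at 422 CPM and the highest ASC library at 413 CPM, and for Mir199b, with 233 CPM in the lowest EV and 231 CPM in the highest ASC library.

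The calls of Mir199a-2 and Mir199b in primed libraries depended on scaling. With library totals alone they stood at 0.46 and 0.32 and did not pass (edgeR, adjusted p = 0.195 and 0.282), while the median of all 245 loci was -0.69, in place of 0.02. Scaling factors were 0.678 to 1.08 in EV and 1.15 to 1.56 in ASC libraries. Without primed ASC 4 they stood at 0.84 and 0.65, and both kept their calls (edgeR, adjusted p = 0.0452 and 0.0234). Mir199a-2 was also near the threshold without primed ASC 3 (0.93, adjusted p = 0.0414) or primed ASC 2 (0.97, adjusted p = 0.0365) by edgeR. Without primed ASC 5 it was further from it (1.59, edgeR adjusted p = 0.000317).

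**Figure D3:**
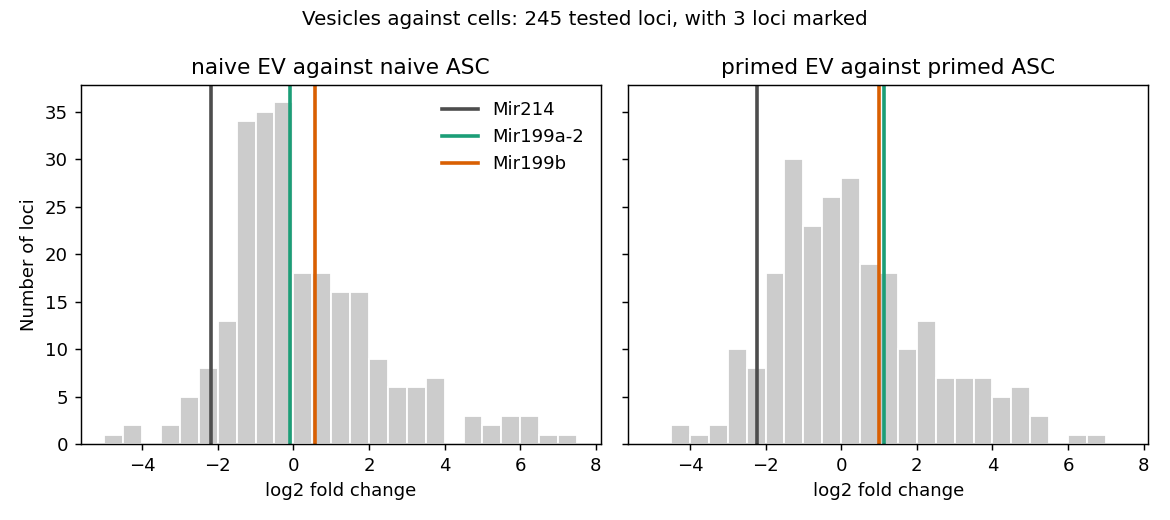
Histograms of the log2 fold change (x axes) of the 245 tested loci (y axis, number of loci) in EVs against ASC, naive and primed, with Mir214, Mir199a-2 and Mir199b as vertical lines. Mir214 lies in the lower tail in both, at -2.17 and -2.23, and the other 2 loci lie near the middle or above it.

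Ratios within a library depend on neither depth nor scaling. The ratio of Mir214 to Mir199a-2 counts is of interest because both are cut from Dnm3os. It was 3.17, 3.31, 3.12, 3.20 and 3.44 in primed EV 1 to 5, and 3.35, 3.85, 5.72, 5.22 and 3.50 in naive EV 1 to 5. It was 38.5, 46.9, 65.4 and 17.0 in primed ASC 2 to 5, and 21.7, 9.77, 11.6 and 29.8 in naive ASC 1, 3, 4 and 5. The highest EV library thus stood below the lowest ASC library, and the primed EV libraries were the closest to each other. On the log2 scale the ratio was lower by -1.96 in naive EV than in naive ASC, and by -3.54 in primed EV than in primed ASC. Both had an exact two-sided permutation p of 0.0159, the smallest that 5 against 4 libraries allow, and an adjusted p of 0.0381 over the 12 exact ratio tests made.

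The ratio of Mir214 to Mir199b counts ran from 4.11 to 5.65 in primed EV, 3.07 to 6.65 in naive EV, 30.5 to 137 in primed ASC and 23.7 to 68.6 in naive ASC. EV and ASC libraries were apart here as well. How often the ratio of any other pair of loci separates EVs from ASC was not tested. Most single loci differed between EVs and ASC, so separation of either Mir214 ratio is not shown to be unusual. The log2 difference was -2.70 between naive EV and naive ASC and -3.42 between primed EV and primed ASC, with exact permutation p = 0.0159 and an adjusted exact p of 0.0317 over the 4 comparisons of this ratio, or 0.0381 over all 12.

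The ratio of Mir199a-2 to Mir199b, the 2 miR-199 loci, did not separate EVs from ASC. Its log2 mean was 0.62 ± 0.19 in primed EV, 0.32 ± 0.69 in naive EV, 0.50 ± 0.59 in primed ASC and 1.06 ± 0.36 in naive ASC (SD, n = 5, 5, 4 and 4). None of its 4 comparisons passed the exact permutation test, with adjusted p from 0.147 to 0.738 over the 12 tests. Whether the miR-199 reads that can be placed at only 1 site make up the same part of all miR-199 reads in EVs and in cells was not tested. The ratios to Mir214 and the ratio of Mir199a-2 to Mir199b carry that limit.

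**Figure D4:**
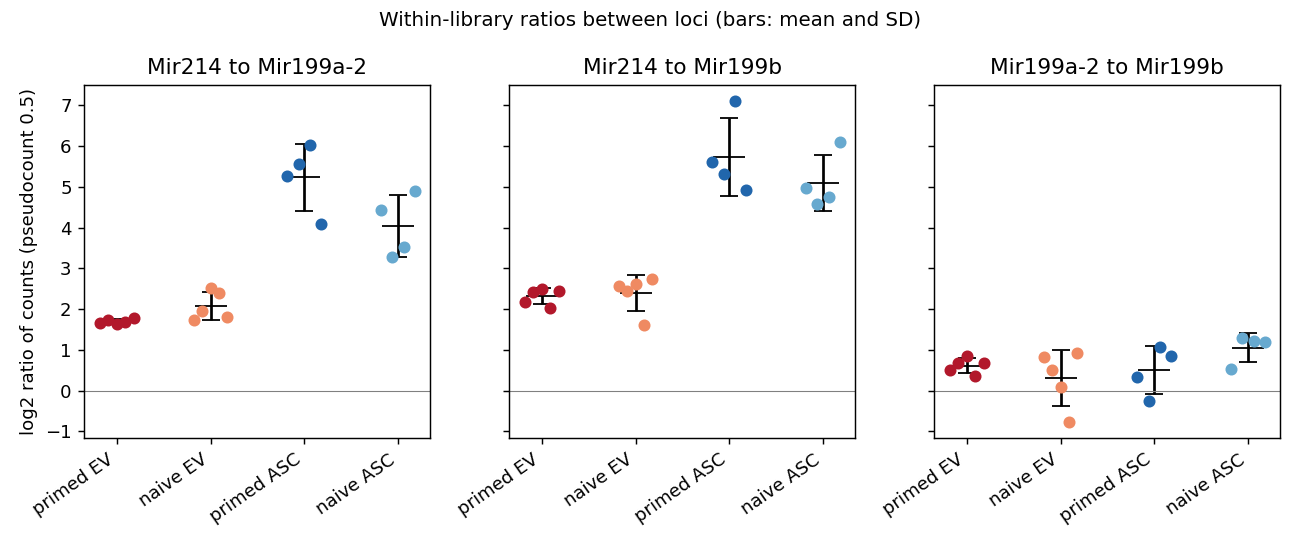
log2 ratio of counts between pairs of loci (y axis, pseudocount 0.5) in each library, by group (x axis), with the mean and SD. Both ratios of Mir214 are lower in all EV libraries than in any ASC library, and the ratio of Mir199a-2 to Mir199b overlaps between groups.

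Priming of the cells changed none of the 3 loci in EVs by the edgeR test. Mir214 stood at 0.17 (95% interval -0.28 to 0.62), Mir199a-2 at 0.49 (-0.11 to 1.09) and Mir199b at 0.27 (-0.28 to 0.82) in primed EV against naive EV, with Benjamini-Hochberg adjusted edgeR p of 0.830, 0.547 and 0.719. At an unadjusted p under 0.05, 0 of the 3 passed by edgeR, DESeq2 or limma-voom, beside 25, 23 and 26 of all 245 loci, and 0 of the 3 passed after adjustment by any of these tools. Of all loci 0.816% passed, all of them upward. The groups overlapped at all 3 loci, while 2.45% of loci had all primed EV above all naive EV libraries. Intervals of this width leave room for changes of up to about the upper bounds given, so equal levels are not shown. With library totals alone Mir214 turned to -0.12 and Mir199b to -0.016, neither passing, and the median of all loci was -0.25.

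The ratio of Mir214 to Mir199a-2 was lower in primed EV than in naive EV by -0.38 on the log2 scale (exact permutation p = 0.0159, adjusted exact p = 0.0381 over 12 tests), a comparison added after the counts were seen. The groups overlapped, with primed EV 5 at 3.44 above naive EV 1 at 3.35, and naive EV 3 and 4 at 5.72 and 5.22 stood above the rest. The ratio of Mir214 to Mir199b differed by -0.08 in the same comparison (exact permutation p = 0.738), and by -0.28 without naive EV 4 (adjusted exact p = 0.0423 over its 4 comparisons).

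In primed ASC against naive ASC the edgeR test again called 0 of the 3 loci, against 10.2% of all loci (5.31% higher and 4.9% lower), and DESeq2 and limma-voom called 0 as well. Mir214 stood at 0.24 (95% interval -0.26 to 0.74; adjusted p = 0.577) and Mir199b at -0.16 (-0.78 to 0.47; adjusted p = 0.769), both by edgeR. Mir199a-2 stood at -0.73 (SE 0.32, 95% interval -1.40 to -0.05; edgeR, unadjusted p = 0.0368 and adjusted p = 0.181), the 1 locus of the 3 with an unadjusted p under 0.05, beside 57 of all 245 loci. Without primed ASC 5, which held the highest primed level, Mir199a-2 was at -1.19 and passed (edgeR, adjusted p = 0.0235). The groups overlapped at all 3 loci, while 6.53% of loci did not overlap upward and 4.9% downward. Mir199b turned to 0.21 without primed ASC 4, to 0.051 without naive ASC 1 and to 0.0094 with TMMwsp factors, none of them passing. The ratio of Mir214 to Mir199a-2 was higher by 1.20 on the log2 scale in primed ASC (exact permutation p = 0.0857, adjusted exact p = 0.147 over 12 tests).

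The difference of the priming effects, EVs minus ASC, was 1.21 for Mir199a-2 (SE 0.43; edgeR, unadjusted p = 0.0109 and adjusted p = 0.266), 0.43 for Mir199b (SE 0.40) and -0.07 for Mir214 (SE 0.32). None passed, and of all 245 loci 0% passed by edgeR, with 26 loci at an unadjusted p under 0.05 and with 3 adjusted calls by DESeq2 and 0 by limma-voom. The priming effect on the log2 ratio of Mir214 to Mir199a-2 was -0.38 in EVs and 1.20 in ASC, a difference of -1.58 (exact permutation of priming labels within EVs and within ASC, p = 0.0226, and 0.0677 adjusted over 3 ratios), which missed the threshold after adjustment. That permutation takes no priming effect in either EVs or ASC as its null. Its p is therefore not an exact test of equal effects.

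**Figure D5:**
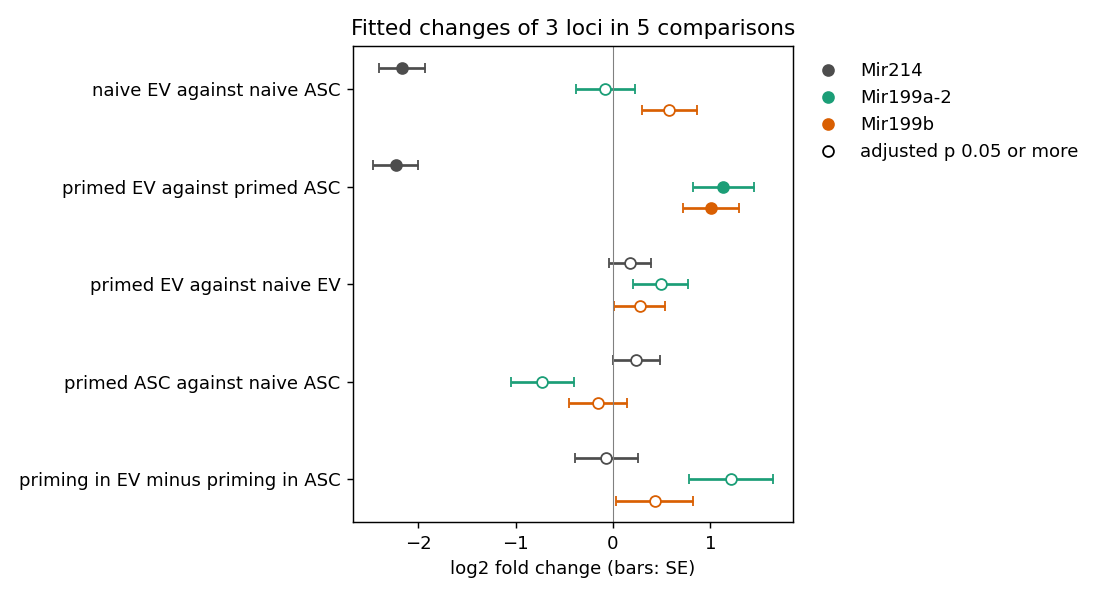
log2 fold change with SE (x axis) of Mir214, Mir199a-2 and Mir199b in 5 comparisons (y axis), from the edgeR fit. Filled points passed the threshold, which were Mir214 in both comparisons of EVs with ASC and Mir199a-2 and Mir199b in the primed one.

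Likeness of pattern was measured as the root mean square difference of log2 CPM over the 18 libraries, after removing each locus's mean. The loci most like Mir214 were Mir125b-1, a regulator of differentiation, at 0.33, Mir15b at 0.36 and Mir485, of the imprinted Dlk1-Dio3 region, at 0.38. Those most like Mir199a-2 were Mir34a, a target of p53, at 0.42, Mir411, also of the Dlk1-Dio3 region, at 0.46, and Gm25927 at 0.49, a locus on the strand opposite Mirlet7e in RefSeq. Those most like Mir199b were Mir411 at 0.42, Mirlet7a-2 at 0.44 and Mir381 at 0.44. At a distance of 0.51, Mir199b was the 4th locus by likeness to Mir199a-2, and Mir199a-2 the 19th by likeness to Mir199b. Mir199a-2 was the 149th by likeness to Mir214, at 1.51, although it shares a host RNA with Mir214. The limit given for the ratios, on miR-199 reads that can be placed at only 1 site, holds for likeness too. It also holds for any other locus named here whose arms recur in another hairpin, and which of them do is not given. In naive EV against naive ASC, Mir125b-1 stood at -2.24 and Mir411 at 0.32, near the values of Mir214 and of the miR-199 loci. These loci were picked for likeness over the same libraries, so such nearness follows from the choice.

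Of 36 other miRNAs known for mesenchymal cells and fibroblasts, 34 were in the files and 33 were tested. In naive EV against naive ASC 9 were higher and 12 lower, beside 82 and 80 of all 245 loci, with a median log2 fold change of -0.20 against -0.24 over all loci. Among those that passed, the highest were Mir29c at 3.39 and Mir21a at 3.07, and the lowest were Mir145a of smooth muscle at -2.79 and Mir29b-1 at -2.70. In primed EV against primed ASC 11 were higher and 13 lower, beside 88 and 79 of all 245 loci (median -0.0058 against 0.02), led by Mir21a at 3.58 and Mir29c at 3.01 and by Mir125a at -2.86 and Mir125b-1 at -2.52. Mir29c and Mir29b-1 belong to a family that restrains collagen genes. All these values are of hairpin loci without reads placed at several sites, so they need not follow the mature miRNA. In primed EV against naive EV 1 was higher, Mir140, a cartilage miRNA, at 0.84, and 0 were lower by edgeR, beside 2 and 0 of all loci (median 0.25 against 0.02). In primed ASC against naive ASC 4 were higher and 1 lower, beside 13 and 12 of all loci (median 0.05 against -0.12), with Mir140 at 1.01, Mir125b-2 at 0.98 and Mir143 at -0.89.

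Loci known for other cell types were counted too, and their calls are to be read beside those over all loci, 33.5% higher and 32.7% lower in naive and 35.9% higher and 32.2% lower in primed EV against ASC. Haematopoietic and red cell miRNAs, 6 of 9 present in the files and all 6 with counts, took 0.165% to 0.635% of counts in primed EV, 0.380% to 1.51% in naive EV, 0.0650% to 0.114% in primed ASC and 0.0713% to 0.143% in naive ASC. The most abundant, Mir142b, had median shares of 0.193%, 0.195%, 0.00775% and 0.00461%. Mir142, Mir486a and Mir486b had no locus in the files, and reads at Mir142b were counted without regard to strand. Of these 6 loci, 5 were higher and 1 lower in EVs in both comparisons with ASC. Mir126a, the 1 endothelial locus present of 2, took 0.198% to 0.496% in primed EV, 0.318% to 0.902% in naive EV, 0.00601% to 0.0592% in primed ASC and 0.0105% to 0.0288% in naive ASC. Epithelial miRNAs, with 10 of 10 present, took 0.355% to 0.664%, 0.284% to 1.37%, 0.439% to 1.34% and 1.11% to 1.95% in the same order of groups. Their median shares were 0.606%, 0.553%, 0.846% and 1.42%. The most abundant of them, Mir182, had median shares of 0.535%, 0.444%, 0.629% and 1.11%, so the list mostly follows that locus. Of 9 epithelial loci tested, 3 were higher and 0 lower in EVs in both comparisons with ASC. Of 11 tested fibrosis miRNAs, some also in the mesenchymal list, 5 were higher and 3 lower in naive and 4 higher and 2 lower in primed libraries. Of 2 tested neural miRNAs 1 was lower in each. Striated muscle miRNAs reached at most 0.00412% of any library, with Mir133a-1 and Mir133a-2 at 0 counts throughout, and neural miRNAs at most 0.0487%. The part of RNA from other cells in the results for Mir214, Mir199a-2 and Mir199b was not tested, and in bulk samples a smaller share of a cell type and less RNA per cell cannot be told apart.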

How the data were processed

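Small RNA libraries were made with a TruSeq kit from 5 microlitres of RNA, per the labels' protocols. The deposited values are raw, unscaled counts of reads per hairpin locus. The counter was featureCounts 1.5.3 with Ensembl release 76, per the file headers, run without strand and without options for reads placed at several sites. Named in the submitters' processing notes are GRCm38, STAR 2.0.4, bcl2fastq, Subread and featureCounts 1.45, with a version of the counter that differs from the headers. For trimming and alignment, settings were not found in the labels. Mature arms are not counted apart.

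Of 2009 loci, 1899 matched GENCODE M21 by identifier, which gave the symbols, and sequences came from RefSeq GRCm38.p6. Library totals ran from 180812 to 3052942 counts. Loci were kept by filterByExpr, which left 245 loci with 99.9573% of counts. Counts were scaled by TMM, and all 18 libraries entered 1 fit of the 4 group means in edgeR 4.0.16 (limma 3.58.1, R 4.3.3). Contrasts used the quasi-likelihood test with Benjamini-Hochberg adjustment over the 245 loci at 0.05. SE is the absolute log2 fold change over the root of F, and 95% intervals use the test's degrees of freedom. Ratios are of counts plus 0.5 and were compared by exact two-sided permutation tests (scipy 1.17.1). The ratio to Mir199b was planned and the other 2 ratios, with the test of their priming effects between EVs and ASC, were added after the counts were seen. The edgeR fit was tested on simulated data in which fewer loci changed than were called here in EVs against ASC. That test does not cover the choice of scaling.

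Loci, gene lists (7, among them fibrosis, neural and other cell type lists) and tests were chosen with earlier results of these data known. Named loci were the 4 hairpins, the 3 loci most like each tested one (log2 CPM, prior count 2), the 2 highest and 2 lowest passing loci of the mesenchymal list per comparison, and the most abundant locus of lists of other cells. Loci named for counts of 0 were chosen after their values were seen. Alternatives were other scalings, filters and tests (DESeq2 1.42.0, limma-voom), fits of 2 groups only, a replicate block, and leaving out each library.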

Additional observations from a re-analysis of the deposited data

Results flagged for a closer look

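Of 24 sets of values checked, which are 3 levels and 3 ratios in 4 groups, 2 held a library far from the others of its group, and chance flags about 1 in 20 sets. The log2 ratio of Mir214 to Mir199b was 1.62 in naive EV 4, below the other naive EV libraries at 2.46 to 2.73. That library also had the lowest Mir214 level of its group, 999 CPM, and the highest Mir199b level, 325 CPM. The log2 ratio of Mir199a-2 to Mir199b was 0.53 in naive ASC 1, below the other naive ASC libraries at 1.20 to 1.28. No cause was tested for either.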

How the results depend on the processing

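Mir214 kept its direction and its call in both comparisons of EVs with ASC under all 10 alternatives and all 18 refits without 1 library, from -2.69 to -1.98 and from -2.35 to -1.77 in naive, and from -2.94 to -2.12 and from -2.35 to -2.14 in primed libraries. Mir199b in naive EV against naive ASC passed with relative log expression factors (0.69), TMMwsp factors (0.77), DESeq2 (0.69), limma-voom (0.61) and only the groups compared (0.60), with 0.49 to 0.79 without 1 library. It did not pass with library totals alone (0.12), no filter (0.60), the stricter filter (0.56) or the replicate block by source or title number (both 0.63). Mir199a-2 there turned positive with relative log expression factors (0.051), TMMwsp factors (0.12), no filter (0.0012) and DESeq2 (0.051), and ran from -0.20 to 0.19 without 1 library. With library totals alone Mir199a-2 stood at -0.52 and did not pass. In primed EV against primed ASC, Mir199a-2 and Mir199b lost their calls with library totals alone (0.46 and 0.32), and with 1 library left out they ran from 0.84 to 1.59 and from 0.65 to 1.19. For EV priming, library totals alone gave -0.12 for Mir214 and -0.016 for Mir199b. For ASC priming, TMMwsp factors gave 0.0094 for Mir199b, and without 1 library Mir199b ran from -0.36 to 0.21 and Mir199a-2 from -1.19 to -0.42. For the difference of priming effects, no filter gave 0.00024 for Mir214, and without 1 library Mir214 ran from -0.47 to 0.13 and Mir199b from -0.033 to 0.54. The causes were not tested. The log2 ratio of Mir214 to Mir199b ran without 1 library from -2.88 to -2.36 in naive EV against naive ASC and from -3.69 to -2.96 in primed EV against primed ASC, where the fewer libraries mostly cannot reach an adjusted exact p under 0.05, from -0.28 to 0.0014 for EV priming, and from 0.18 to 0.97 for ASC priming. The ratio of Mir199a-2 to Mir199b in primed EV against primed ASC, 0.12, ran from -0.13 without primed ASC 3 to 0.31 without primed ASC 4. A pseudocount of 1 changed no call of the planned ratio.

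Over all loci, EV priming called 2 loci, against 1 with TMMwsp factors or library totals alone, 8 with no filter, 5 with DESeq2 and 7 where title numbers were the replicate block. Without 1 library that count ran from 1 to 8. ASC priming called 25, against 15 with only the groups compared, and from 6 to 33 without 1 library. The difference of priming effects called 0, against 3 with no filter and with DESeq2, and 0 to 1 without 1 library. With library totals alone 65 loci were higher and 116 lower in naive EV against naive ASC, in place of 82 and 80, and 58 and 118 in primed, in place of 88 and 79.

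Whether replicate numbers mark paired libraries is not stated, and the main fit used no pairing. Deviations of same-numbered libraries correlated from -0.16 to 0.52, which does not settle it. In naive EV against naive ASC they were 0.42, 0.32, 0.42 and -0.16 for replicates 1, 3, 4 and 5. Primed EV 3 and naive EV 4, of different numbers, stood at 0.50, and primed EV 2 and naive EV 4 at -0.61. Primed EV 2 and naive EV 1 stood at 0.66, above every same-numbered pair. Their source numbers differ, and their title numbers are 2 and 1+2. The SE of Mir214 in naive libraries was 0.20 with the block by source number and 0.23 without it. With the replicate block by source number Mir214 stood at -2.11 and -2.32 and by title number at -2.11 and -2.34 in naive and primed libraries, and the block changed no call of the 3 loci.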
